A study of Mus musculus with 12 samples.

Results

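The genes described here are 10 immediate early genes of the AP-1 and EGR kind: Fos, Fosb, Fosl1, Jun, Junb, Egr1, Egr2, Egr3, Ier2 and Gem. They were taken by name, 10 of the 20201 genes measured. No level in these libraries entered the rule, but the members and the lists below were chosen with earlier results of these data known. A total of 8 reached a mean of 10 normalized counts over the 12 libraries and entered the tests; Fosb and Egr3 did not. Immediate early genes are transcribed within minutes of a stimulus without new protein synthesis. FOS and JUN proteins pair through leucine zippers to form AP-1, which binds DNA at genes of growth, matrix remodelling and stress, and EGR proteins bind GC-rich sites through zinc fingers. In muscle cells both groups are known to respond to mechanical load, calcium and growth factors.

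The libraries came from mouse myotubes, the multinucleated cells formed by fusion of primary myoblasts, here taken from animals whose Bmal1 gene is floxed. Bmal1 (Arntl in the table) encodes the circadian activator that pairs with CLOCK. All cultures were infected with adenovirus for 48 hours, either with the Cre recombinase, which deletes the floxed segment, or with an empty virus as the control. The series describes 4 conditions (either virus, then 21% or 1% oxygen for 6 hours), whereas the sample labels give 2: 6 libraries are labelled wildtype with 21% oxygen and 6 are labelled Bmal1 knockout with 1% oxygen. By label, the effects of genotype and oxygen cannot be told apart. The titles number the libraries, and the numbers make up 4 blocks of 3: Myotube1 to 3 and Myotube7 to 9 carry the wildtype label, Myotube4 to 6 and Myotube10 to 12 the knockout label. Myotube1 to 6 are called the first set below and Myotube7 to 12 the second set. The labels do not say how these sets differ, nor from which culture, animal or batch a library came. All p-values thus rest on differences among libraries that may be technical replicates.

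Checks of the labels came first. Arntl lay at 133 to 179 normalized counts in the wildtype-labelled libraries and at 41.7 to 48.6 in the knockout-labelled ones, so it followed the genotype label. Genes that the hypoxia-inducible factor HIF-1 is known to activate did not follow the oxygen label. Egln3, a prolyl hydroxylase, lay at 194 to 270 in the first set and at 2036 to 2258 in the second, in both labels alike, and Slc2a1, the glucose transporter GLUT1, at 475 to 588 and 3168 to 3554. All 10 genes of a HIF target list were higher in the second set within each label. These genes therefore go against the oxygen labels, and no difference between sets is assigned to a treatment here. The summed level of 10 myotube markers was 17952 to 22465 in the wildtype-labelled and 29428 to 32812 in the knockout-labelled libraries. By label 5 of them were called higher, among them Mymk, Ckm and Tnnt3, and 3 lower (Myog, Actn2 and Ttn at -0.51, -0.38 and -0.36 on the log2 scale). The sum of 4 myoblast markers was 248 to 317 and 79.9 to 136, with 3 called lower and 0 higher. Of 6 fibroblast markers, 0 were at or below a floor of 3 reads in every library, and their sum was 72580 to 90920 in the first 9 libraries and 98582 to 105190 in Myotube10 to 12. The sum of 5 endothelial markers was 889 to 1009 in the wildtype-labelled and 1198 to 1471 in the knockout-labelled libraries, with Pecam1 and Cdh5 called higher by label. Of 2 adipocyte markers, Adipoq was at or below the floor in every library, and Fabp4 was higher in the second set, so that their sum was 97.2 to 147 in the first set and 210.1 to 258 in the second. Of 6 leukocyte markers, Ptprc and Tyrobp were at or below the floor in every library and the other 4 were not, and the sum was 11.3 to 27.1 in the wildtype-labelled and 19.5 to 52.4 in the knockout-labelled libraries. In bulk RNA, fewer cells of a type and less RNA per cell cannot be told apart. Recovered reads totalled 6376584 to 12463339 per library, of which 11 abundant genes took 51.2% to 67.0%. Myotube2 had the fewest reads and listed 29.6% of genes at 0, against 13.0% to 21.9% elsewhere.

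Promoters of 5 of the 10 members were matched by symbol in a RefSeq table (GRCm38.p6): Fos, Fosb, Jun, Junb and Egr2. Fosl1, Egr1, Egr3, Ier2 and Gem did not match. Shown are the 250 bases before the annotated start, 5′ to 3′ on the gene's strand. They belong to the 3 matched AP-1 genes that were called higher in the second set within both labels, and to the third of 5 Egr2 starts. Capitals mark matches of 6 letters or more to a searched motif on either strand.
Fos, chr12:85473640-85473889, plus strand: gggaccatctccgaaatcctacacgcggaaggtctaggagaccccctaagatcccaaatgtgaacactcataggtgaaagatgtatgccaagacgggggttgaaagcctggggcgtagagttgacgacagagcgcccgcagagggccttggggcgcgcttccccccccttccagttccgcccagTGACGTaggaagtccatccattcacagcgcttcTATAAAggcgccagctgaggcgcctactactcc
Jun, chr4:95052223-95052472, minus strand: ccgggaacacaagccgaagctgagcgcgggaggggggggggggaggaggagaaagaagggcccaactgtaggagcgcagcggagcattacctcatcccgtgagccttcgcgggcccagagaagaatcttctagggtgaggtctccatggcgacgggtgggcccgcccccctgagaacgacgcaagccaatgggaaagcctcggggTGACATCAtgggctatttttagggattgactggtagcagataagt
Junb, chr8:84978749-84978998, minus strand: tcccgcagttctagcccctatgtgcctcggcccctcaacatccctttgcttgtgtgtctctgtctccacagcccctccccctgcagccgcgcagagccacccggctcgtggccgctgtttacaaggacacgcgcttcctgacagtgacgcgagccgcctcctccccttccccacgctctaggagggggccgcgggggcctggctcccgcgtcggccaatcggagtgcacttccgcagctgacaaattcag
Egr2, chr10:67537619-67537868, plus strand: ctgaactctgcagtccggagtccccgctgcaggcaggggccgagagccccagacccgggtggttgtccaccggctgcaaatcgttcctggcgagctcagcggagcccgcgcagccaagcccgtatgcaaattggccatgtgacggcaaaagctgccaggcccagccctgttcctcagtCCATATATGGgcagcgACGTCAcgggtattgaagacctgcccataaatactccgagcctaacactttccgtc
In Fos the capitals are TGACGT at -66 to -61, the first 6 letters of the cAMP response element TGACGTCA, and a TATAAA box at -33 to -28. In Jun they are the site TGACATCA at -45 to -38. In Egr2 they are a serum response element (CArG box) at -72 to -63 and TGACGT read from the other strand at -56 to -51. Junb held no match, which says only that these letters are not in this window.

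Across 32536 promoter windows of the same length in the table, TATAAA was found in 12.3%, TGACGT in 6.50%, TGACATCA in 2.84%, the CArG box in 1.48% and the whole TGACGTCA in 1.56%. TGACGT lies within TGACGTCA, and TGACGT and TGACATCA were added to the search after the Fos and Jun promoters had been read. Also searched were the AP-1 site TGANTCA (6.73% of windows), the EGR site GCGGGGGCG (2.60%), the E-box CACGTG that CLOCK and BMAL1 can bind (6.04%) and the hypoxia response core ACGTG (16.7%), which lies within CACGTG. None of these 4 was found in the printed windows. GCGGGGGCG was found in the Fosb window at -50 to -42, and CACGTG in the window of the first Egr2 start at -27 to -22. A match is a description of letters, not evidence of binding.

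Fos, Fosl1, Jun, Junb and Gem were higher in the second set than in the first under both labels, from 1.54-fold for Jun to 4.02-fold for Fos, both under the wildtype label. Egr1 and Gem differed by label over all 12 libraries: Egr1 was 1.68-fold higher and Gem 2.09-fold lower in the knockout-labelled libraries. Fosl1 was higher under the knockout label within each set, and Jun was lower under it in the first set.

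Fos (ENSMUSG00000021250, chr12:85473890-85477273, plus strand, protein coding) encodes c-FOS, an AP-1 subunit that must pair with a JUN protein. Its normalized counts were 22.9, 23.2 and 20.6 in Myotube1 to 3 and 27.2, 26.1 and 22.2 in Myotube4 to 6. They were 93.5, 84.2 and 99.9 in Myotube7 to 9 and 109, 91.3 and 90.6 in Myotube10 to 12. Every library of the second set was above every library of the first, with means of 22.2 ± 1.46 and 92.5 ± 7.91 under the wildtype label and 25.2 ± 2.64 and 97.0 ± 10.5 under the knockout label (SD, n = 3 each). The log2 difference between sets was 2.01 ± 0.17 (SE) for wildtype (limma with Benjamini-Hochberg adjustment over all genes, adjusted p = 3.91e-06) and 1.90 ± 0.17 (SE) for knockout (limma, adjusted p = 5.04e-06), or 4.02-fold and 3.74-fold. These are differences of log2(normalized count + 1), a scale that understates the change of low genes. Between labels the log2 difference was 0.17 in the first set and 0.07 in the second and did not pass in either (limma, adjusted p = 0.529 and 0.849; 95% intervals -0.20 to 0.54 and -0.31 to 0.44).

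Fosl1 (ENSMUSG00000024912, chr19:5447547-5455946, plus strand) encodes FRA-1, a FOS relative without a strong activation domain. Its counts were 36.1, 27.9 and 31.8 in Myotube1 to 3, 43.7, 44.8 and 61.2 in Myotube4 to 6, 75.2, 99.8 and 78.5 in Myotube7 to 9 and 138, 146 and 138 in Myotube10 to 12. The 4 blocks did not overlap and stood in that order, with means of 31.9 ± 4.11, 49.9 ± 9.83, 84.5 ± 13.3 and 141 ± 4.68 (SD, n = 3). Fosl1 was the single member called higher in all 4 pairwise block comparisons tested. It was 2.59-fold higher in the second set for wildtype and 2.82-fold for knockout (log2 1.37 ± 0.18 (SE) and 1.5 ± 0.18 (SE); limma, adjusted p = 0.000165 and 7.05e-05). By label it was 1.54-fold higher in knockout in the first set (log2 0.62 ± 0.18 (SE); limma, adjusted p = 0.0312) and 1.67-fold in the second (log2 0.74 ± 0.18 (SE); limma, adjusted p = 0.0137). Both label calls were near the threshold. Without Myotube2, Myotube3 or Myotube6 the first-set call was lost (adjusted p = 0.0566 to 0.122), and without Myotube7, Myotube9 or Myotube11 the second-set call was lost (0.0502 to 0.0673). Fosl1 overlaps Ccdc85b on the other strand (mean 33.4), which also passed between sets (log2 1.42 and 0.73; limma, adjusted p = 0.000573 and 0.0322). The library kit keeps strand, but no source used here says whether the counting used it, so reads of the pair may not be separated. Of 2 tested genes that overlap a member (Ccdc85b and, at Junb, Prdx2), 1 was called higher by label over all libraries and in the first set. All genes gave 10.2% and 10.8%. Neither comparison called any of the 2 lower, and in the second set 0 were called.

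Fosb (ENSMUSG00000003545, chr7:19302696-19310051, minus strand), another FOS relative, was near the detection floor. Its counts were 6.16, 3.10 and 6.54 in Myotube1 to 3, 8.24, 3.73 and 4.44 in Myotube4 to 6, 5.84, 7.78 and 7.85 in Myotube7 to 9 and 27.3, 9.01 and 10.5 in Myotube10 to 12, and it had 3 reads or fewer in 2 libraries. Myotube10 alone stood above the others. With no filter on low genes, no comparison of Fosb passed; the smallest adjusted p was 0.158, between sets under the knockout label (limma).

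**Figure D1:**
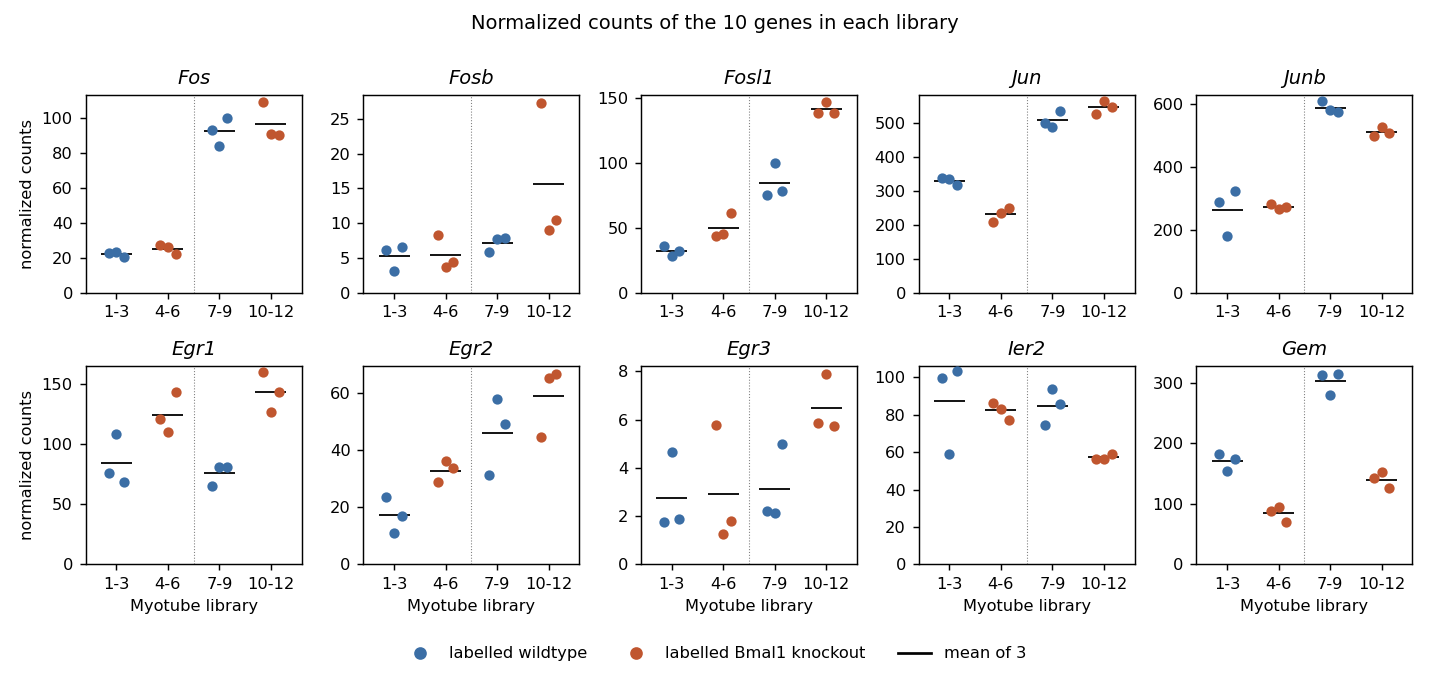
Normalized counts of the 10 members in each of the 12 libraries (points; linear axes from 0), by block of 3, with lines at the block means. Fos, Jun, Junb, Fosl1, Egr2 and Gem are higher in every library of the second set than in any library of the first with the same label. Egr1 and Gem separate by label.

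Within the FOS family, levels were compared per kilobase of exon, since longer transcripts give more reads. Fosl2, which encodes FRA-2 and is not a member, made up 72.6% of the family's normalized counts per kilobase in Myotube1 to 3 and 56.4% in Myotube10 to 12. Fos made up 9.95% in Myotube1 to 3, 11% in Myotube4 to 6, 17.9% in Myotube7 to 9 and 15.9% in Myotube10 to 12. Fosl1 made up 16.6%, 25.1%, 18.8% and 26.7% in the same order, higher under the knockout label in each set. Fos was below Fosl1 in every block mean, although in Myotube7 to 9 by less than the SD between libraries (1.94 and 2.34 percentage points). Shares are descriptions of 3 libraries each, with no test. Fosl2 itself was 2.01-fold higher in the second set for wildtype and 2.38-fold for knockout (limma, adjusted p = 5.42e-07 and 6.27e-08).

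Jun (ENSMUSG00000052684, chr4:95049034-95052222, minus strand) encodes c-JUN, the AP-1 subunit that JNK kinases phosphorylate. Its counts were 338, 336 and 319 in Myotube1 to 3 and 208, 235 and 249 in Myotube4 to 6. They were 502, 489 and 537 in Myotube7 to 9 and 528, 567 and 546 in Myotube10 to 12. In the first set all 3 wildtype-labelled libraries were above all 3 knockout-labelled ones; in the second set the ranges overlapped. Jun was 1.43-fold lower under the knockout label in the first set (means 331 ± 10.7 and 231 ± 20.7; log2 -0.52 ± 0.08 (SE); limma, adjusted p = 0.000929). In the second set the log2 difference was 0.10 (95% interval -0.08 to 0.28; limma, adjusted p = 0.451). Between sets it was 1.54-fold higher for wildtype and 2.37-fold for knockout in the second set (log2 0.62 ± 0.08 (SE) and 1.24 ± 0.08 (SE); limma, adjusted p = 0.000198 and 3.69e-07). The difference between these differences was 0.62 ± 0.12 (SE) on the log2 scale, with a 95% interval of 0.37 to 0.88. It did not pass the adjustment over all genes in limma (adjusted p = 0.229) and passed in DESeq2 on recovered reads (adjusted p = 0.00798). Jun overlaps Junos on the other strand, which was low (mean 4.38).

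Junb (ENSMUSG00000052837, chr8:84974484-84978718, minus strand) encodes JUNB, a JUN relative known to support muscle mass. Its counts were 287, 179.6 and 322 in Myotube1 to 3 and 282, 265 and 271 in Myotube4 to 6, against 607, 579 and 573 in Myotube7 to 9 and 497, 526 and 506 in Myotube10 to 12. Every library of the second set was above every library of the first. Myotube2 was the lowest of the 12. Junb was 2.29-fold higher in the second set for wildtype (means 263 ± 74.3 and 587 ± 18; log2 1.20 ± 0.16 (SE); limma, adjusted p = 0.000192) and 1.87-fold for knockout (means 273 ± 8.56 and 509.9 ± 14.8; log2 0.90 ± 0.16 (SE); limma, adjusted p = 0.00150). Between labels it passed in neither set (log2 0.09 and -0.20; limma, adjusted p = 0.727 and 0.449), though without Myotube2 the second-set difference passed at an adjusted p of 0.0474. The other-strand neighbour Prdx2 is more abundant (mean 755) and did not pass between sets (log2 0.23 and -0.18; limma, adjusted p = 0.340 and 0.479).

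Per kilobase, Jund, the JUN relative that resting cells express, held 47.1% to 50.9% of the JUN family in every block. Jun held 23.8% in Myotube1 to 3, 18.7% in Myotube4 to 6, 20.4% in Myotube7 to 9 and 23.0% in Myotube10 to 12, and Junb 25.6%, 30.5%, 32.5% and 29.7%. The order Jund, Junb, Jun was the same in all 4 block means, and in Myotube1 to 3 Junb and Jun differed by less than their SD (4.67 and 3.34 percentage points). Jund was 1.66-fold and 1.78-fold higher in the second set for wildtype and knockout (limma, adjusted p = 3.46e-05 and 9.15e-06).

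**Figure D2:**
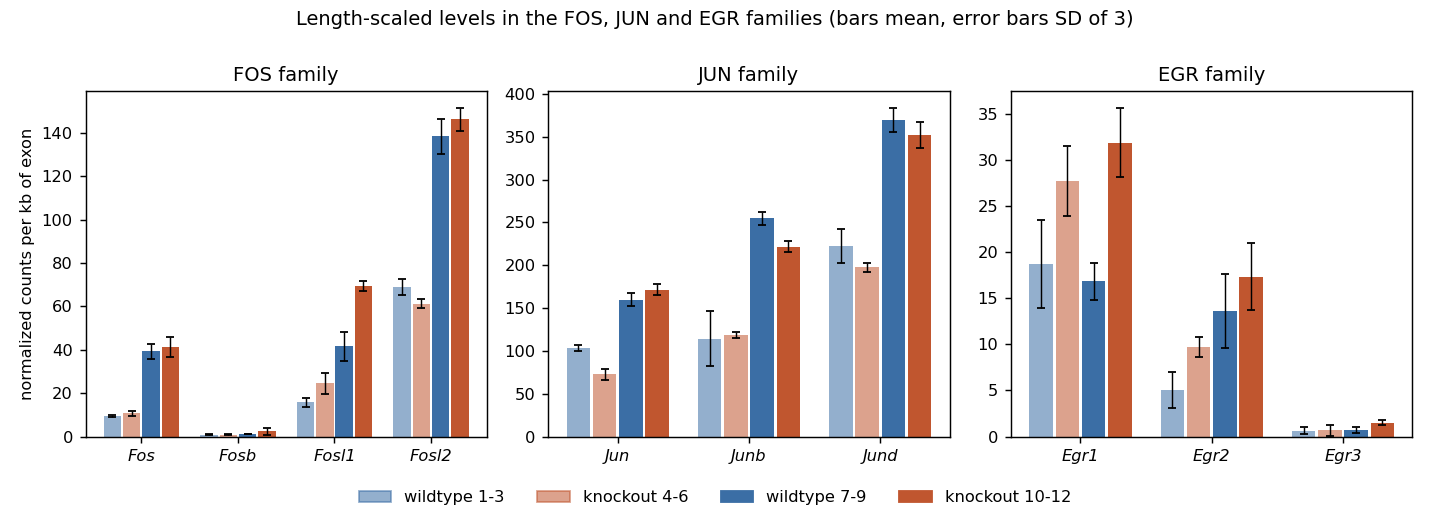
Normalized counts per kilobase of exon of the FOS, JUN and EGR family genes, as bars at the block means with error bars of 1 SD (n = 3 libraries). Fosl2, Jund and Egr1 are the highest of their families in every block mean.

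Egr1 (ENSMUSG00000038418), a zinc-finger factor induced by serum and by ERK signalling, separated by label in all 12 libraries. Its counts were 75.7, 108 and 68.2 in Myotube1 to 3 and 65.0, 80.7 and 80.7 in Myotube7 to 9, against 120.3, 109 and 143 in Myotube4 to 6 and 159.9, 126 and 143 in Myotube10 to 12. All 6 knockout-labelled libraries were above all 6 wildtype-labelled ones, the nearest being Myotube2 at 108. The log2 difference over all 12 libraries was 0.75 ± 0.14 (SE), or 1.68-fold higher (limma, adjusted p = 0.00167). Within the second set it was 1.88-fold (means 75.4 ± 9.03 and 143 ± 16.9; log2 0.91 ± 0.18 (SE); limma, adjusted p = 0.00484) and within the first set 1.49-fold (means 84.1 ± 21.4 and 124 ± 17.0; log2 0.58 ± 0.18 (SE); limma, adjusted p = 0.0457). The first-set call was lost when any library other than Myotube2 was left out (adjusted p = 0.0516 to 0.154). Between sets it did not pass under either label, with log2 differences of -0.13 (95% interval -0.53 to 0.27; limma, adjusted p = 0.673) and 0.20 (-0.20 to 0.60; adjusted p = 0.501). The sums of the myotube markers (5 called higher, 3 lower) and of the endothelial markers (2 of 5 called higher) were also higher in all 6 knockout-labelled libraries, and their part in the Egr1 difference was not tested.

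Egr2 (ENSMUSG00000037868, chr10:67535475-67542188, plus strand) is known for its role in peripheral myelination. Its counts were 23.8, 10.8 and 16.8 in Myotube1 to 3, 28.8, 36.1 and 33.7 in Myotube4 to 6, 31.4, 58.0 and 49.2 in Myotube7 to 9 and 44.8, 65.3 and 66.8 in Myotube10 to 12. The first-set blocks did not overlap each other, and those of the second set did. Under the wildtype label it was 2.64-fold higher in the second set (means 17.1 ± 6.47 and 46.2 ± 13.6; log2 1.40 ± 0.31 (SE); limma, adjusted p = 0.00729). Under the knockout label the difference of 0.81 ± 0.31 (SE) did not pass (means 32.9 ± 3.69 and 59.0 ± 12.3, limma adjusted p = 0.0909). It passed without Myotube2 (limma, adjusted p = 0.0326), which is not in this comparison. The log2 difference stayed at 0.81, while the 4 blocks share an estimate of spread. By label Egr2 was 1.94-fold higher in the first set (log2 0.96 ± 0.31 (SE), limma adjusted p = 0.0466) and did not pass in the second (log2 0.37, adjusted p = 0.477). The first-set call was lost without any of Myotube2 to 6, Myotube8, 9, 11 or 12 (adjusted p = 0.0538 to 0.126), and with edgeR (0.0717) or DESeq2 (0.0769).

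Egr3 (ENSMUSG00000033730, chr14:70077203-70082614, plus strand), needed for muscle spindles, had 3 reads or fewer in 8 of 12 libraries. Its counts were 1.76, 4.65 and 1.87 in Myotube1 to 3, 5.77, 1.24 and 1.77 in Myotube4 to 6, 2.19, 2.12 and 5.00 in Myotube7 to 9 and 5.85, 7.89 and 5.72 in Myotube10 to 12. No comparison passed with no filter on low genes; the smallest adjusted p was 0.257, between sets under the knockout label (limma). A difference was not detectable at this depth. Per kilobase, Egr1 made up 76.2% of the 3 EGR genes in Myotube1 to 3, 72.6% in Myotube4 to 6, 54.6% in Myotube7 to 9 and 62.9% in Myotube10 to 12, Egr2 21.4%, 25.6%, 43.1% and 34.2%, and Egr3 under 3% throughout. Egr4 was not analysed here.

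Ier2 (ENSMUSG00000053560, chr8:84661331-84662852, minus strand) encodes a small nuclear protein of the same early response. Its counts were 99.5, 58.9 and 104 in Myotube1 to 3, 86.5, 83.4 and 77.2 in Myotube4 to 6, 74.5, 94.1 and 85.6 in Myotube7 to 9 and 56.5, 56.3 and 59.1 in Myotube10 to 12. Myotube10 to 12 lay at 59.1 or below, as did Myotube2, and the other 8 libraries lay above. No comparison of Ier2 passed: the largest log2 differences were -0.55 ± 0.20 (SE) by label in the second set (95% interval -0.98 to -0.12; limma, adjusted p = 0.0802) and -0.51 ± 0.20 (SE) between sets under the knockout label (-0.94 to -0.08; adjusted p = 0.0953). Without Myotube2, in which Ier2 was 58.9, both passed (adjusted p = 0.00754 and 0.00997); the 4 blocks share an estimate of spread in this fit.

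Gem (ENSMUSG00000028214, chr4:11704457-11714752, plus strand) encodes a small GTP-binding protein of the RGK family that inhibits voltage-gated calcium channels. Its counts were 183, 155 and 175 in Myotube1 to 3 and 88.2, 94.6 and 69.2 in Myotube4 to 6, and 313, 280.2 and 315 in Myotube7 to 9 and 142, 152 and 126 in Myotube10 to 12. The blocks were separate within each set and within each label. By label Gem fell 2.04-fold in the first set (means 171 ± 14.5 and 84.0 ± 13.2; log2 -1.03 ± 0.13 (SE); limma, adjusted p = 0.000220) and 2.16-fold in the second (means 303 ± 19.6 and 140.1 ± 13.2; log2 -1.11 ± 0.13 (SE); limma, adjusted p = 0.000180). Over all 12 libraries the log2 difference was -1.07 ± 0.23 (SE) (limma, adjusted p = 0.00554). Between sets Gem was 1.77-fold higher for wildtype and 1.67-fold for knockout in the second set (log2 0.82 ± 0.13 (SE) and 0.74 ± 0.13 (SE); limma, adjusted p = 0.000915 and 0.00172). The interval of the difference between these set effects was -0.49 to 0.33 (log2). Summed myoblast markers were lower and summed endothelial markers higher in the same 6 knockout-labelled libraries, and their part in the Gem difference was not tested.

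Counted over the members, 6 of 8 tested were called higher in the second set for wildtype (Fos, Fosl1, Jun, Junb, Egr2 and Gem), where 9.79% of all 12553 tested genes were called higher, and 0 were called lower (6.96% of all genes) in limma, edgeR or DESeq2. Under the knockout label 5 of 8 were called higher (all genes 11.2%) and 0 lower (7.89%) in limma. In either direction, 16.8% and 19% of all genes were called. At an unadjusted p under 0.05, limma gave 6 higher and 0 lower for wildtype, and 6 higher and 1 lower (Ier2) for knockout; edgeR and DESeq2 called 5 and 6 higher and 0 lower for knockout. The 5 called higher under both labels were Fos, Fosl1, Jun, Junb and Gem, against 7.19% of all genes; 0 were lower under both, against 3.82%. The members' median log2 difference was 1.01 for wildtype and 0.85 for knockout, beside medians over all genes of 0.01 and -0.02. The wildtype and knockout set comparisons use different libraries. With the 11 abundant genes left out of the scaling, calls over all genes moved from 1229 higher and 874 lower to 945 and 1409 for wildtype, and from 1401 and 990 to 1142 and 1509 for knockout, and the members still counted 6 and 5 higher. The summed HIF target list was 10503 to 12852 in the first set and 29509 to 30965 in the second, and the adipocyte marker Fabp4 was also higher in the second set; their part in the members' differences was not tested.

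**Figure D3:**
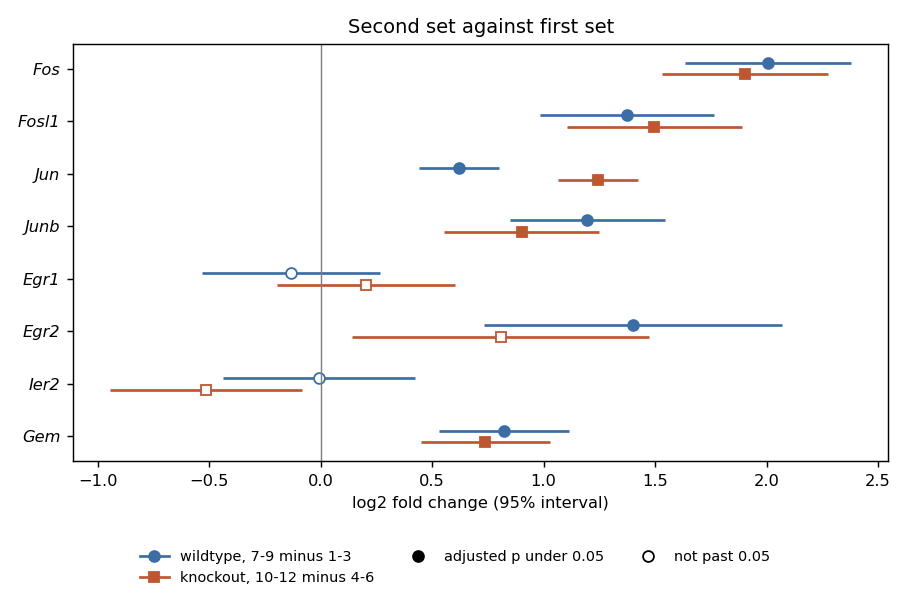
Log2 difference between the second and the first set for each tested member, with 95% intervals, for the wildtype-labelled (Myotube7 to 9 against 1 to 3) and knockout-labelled libraries (Myotube10 to 12 against 4 to 6). Fos is the highest at 2.01 and 1.90, and the intervals of Egr1 under both labels and of Ier2 for wildtype reach across 0. Open symbols did not pass an adjusted p of 0.05.

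By label the members split. Over all 12 libraries 1 of 8 was called higher (Egr1) where 10.2% of all genes were, and 1 lower (Gem) where 9.07% were, 19.2% in either direction. This fit leaves the set out. With the set as a covariate, Fosl1 and Egr2 were also called higher (log2 0.68 and 0.66; limma, adjusted p = 0.00102 and 0.0393, against 0.286 and 0.253 without it). In the first set 3 were called higher (Fosl1, Egr2 and Egr1; all genes 10.8%) and 2 lower (Gem and Jun; all genes 7.97%), and in the second set 2 higher (Fosl1 and Egr1; all genes 8.84%) and 1 lower (Gem; all genes 7.64%). In either direction 18.8% of genes were called in the first set and 16.5% in the second. Fosl1 and Egr1 were called higher in both sets (all genes 5.97%), and Gem lower in both (all genes 4.18%). Counts of 0 arose in the test of whether the label effect differed between sets, where 0.00797% of genes passed in limma: 0 members passed in limma, 1 (Jun) had an unadjusted p under 0.05 (0.000159), edgeR called 0 and DESeq2 1 (Jun). Leaving the 11 abundant genes out of the scaling moved the median log2 difference of all genes by label from 0.00 to -0.16, and the calls from 1277 higher and 1139 lower to 631 and 2116. Under it Egr1 and Gem were still called over all libraries, while in the first set, where calls moved from 1357 and 1001 to 741 and 2177, Fosl1, Egr1 and Egr2 were lost (limma, adjusted p = 0.0799, 0.108 and 0.0755). In the second set the calls moved from 1110 and 959 to 546 and 1790, and Ier2 was gained (log2 -0.70; adjusted p = 0.0292).

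**Figure D4:**
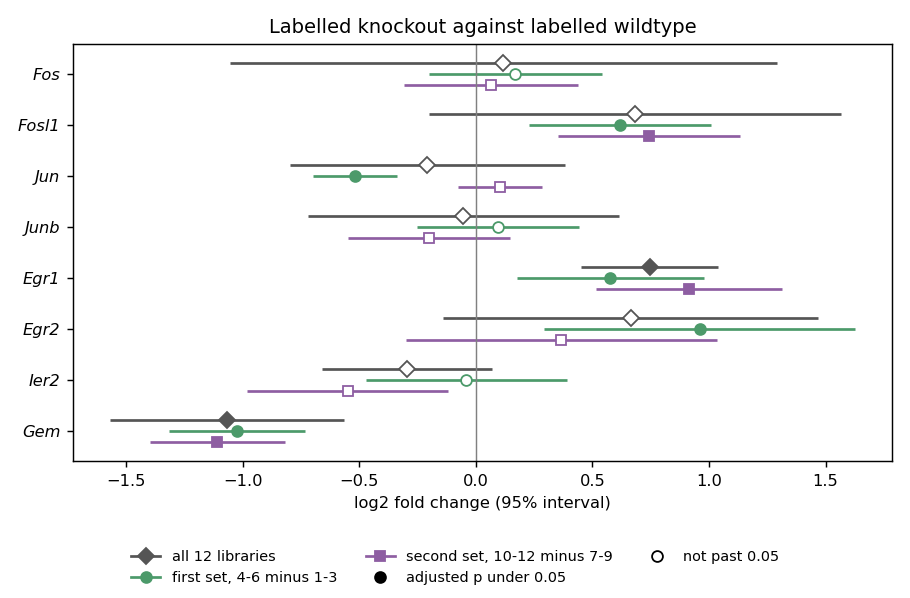
Log2 difference of the knockout-labelled from the wildtype-labelled libraries for each tested member, with 95% intervals, in the first and in the second set (open symbols did not pass an adjusted p of 0.05). Gem lies below 0 and Fosl1 and Egr1 above 0 in both sets, and Jun lies at -0.52 in the first and 0.10 in the second.

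Other immediate early genes were taken as a list of 40, of which 39 were in the table and 38 were tested. Between sets 12 were called higher and 1 lower for wildtype, and 17 higher and 3 lower for knockout, where 9.79% and 6.96%, and 11.2% and 7.89%, of all genes were. In both, 12 were called higher (all genes 7.19%). The list's median log2 difference was 0.24 and 0.29, beside 0.01 and -0.02 over all genes. Ier3, a stress-induced survival factor, had the highest difference, with counts of 85.2 to 152 in Myotube1 to 3 and 709.6 to 839 in Myotube7 to 9, and 107 to 148 in Myotube4 to 6 and 653 to 749.5 in Myotube10 to 12 (log2 2.61 and 2.51; limma, adjusted p = 9.75e-07 and 1.21e-06). Maff, a small MAF bZIP protein, and Sik1, a salt-inducible kinase, differed by 1.84 and 2.04, and 1.32 and 1.45. Atf3, a stress-induced bZIP factor that pairs with JUN proteins, differed by 0.92 and 1.73. Called lower were Plk3 for wildtype (-1.14) and Rgs2 for knockout (-1.45), besides Ier5 and Plk2, which fell by less.

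By label 0 of 38 were called higher and 4 lower over all libraries (all genes 10.2% and 9.07%), 1 and 8 in the first set (10.8% and 7.97%), and 0 and 5 in the second (8.84% and 7.64%), all by limma. The 4 of 38 lower over all libraries are a share close to that of all genes; edgeR and DESeq2 also called 0 higher over all libraries and in the second set. At an unadjusted p under 0.05, 0 were higher over all libraries and 3 in the second set. With the 11 abundant genes left out of the scaling, 9, 16 and 11 were called lower. Over all genes this scaling called 2116, 2177 and 1790 of 12542 lower, against 1139, 1001 and 959 of 12553 before. Rgs2, a regulator of G-protein signalling, fell by 2.07 over all libraries (limma, adjusted p = 0.00384), Zfp36, which destabilises AU-rich messages, fell by 0.65 (0.00235), and Sgk1, a serum-induced kinase, fell by 0.63 (0.00452). Atf3 had log2 differences of -1.53 in the first set and -0.73 in the second, both called, although the second was lost with quantile normalization (limma, adjusted p = 0.0502). Errfi1, an inhibitor of the EGF receptor, was the gene called higher, by 0.38 in the first set.

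**Figure D5:**
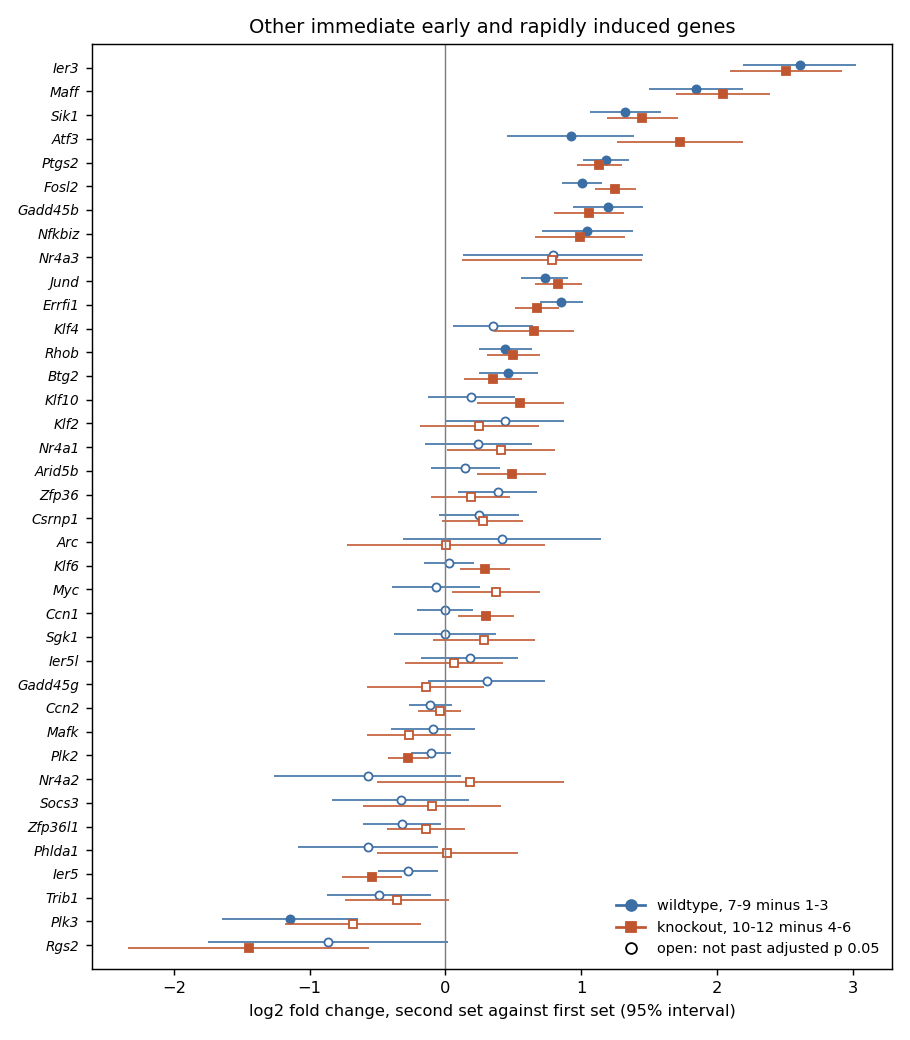
Log2 differences between sets of the tested genes of the list of other immediate early genes, for the wildtype-labelled and knockout-labelled libraries. Bars are 95% intervals and open symbols did not pass an adjusted p of 0.05. Ier3, at 2.61 and 2.51, and Maff, at 1.84 and 2.04, have the largest differences.

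Upstream of the members, 22 genes of the ERK, JNK and SRF pathways were tested. Between sets 2 were called higher and 2 lower for wildtype, and 3 higher and 2 lower for knockout, with list medians of 0.01 and 0.13 (log2). These shares are near those of all genes (9.79% higher and 6.96% lower, and 11.2% and 7.89%). Map2k1, the kinase MEK1, was higher by a log2 difference of 0.71 and 0.61, and Mapk8, the kinase JNK1, by 0.55 and 0.55; the Mapk8 calls were lost without the 11 abundant genes (limma, adjusted p = 0.0826 and 0.0728). Srf, the factor that binds the CArG box, was called lower, with log2 differences of -0.34 and -0.43. By label 3 were called higher and 1 lower over all libraries (all genes 10.2% and 9.07%). Without the 11 abundant genes 0 and 3 were, where 631 and 2116 of all 12542 genes were. Mapk8 had a log2 difference of -0.60 (limma, adjusted p = 0.0393), which did not pass with quantile normalization (0.0530). Map2k2 had 0.39 (0.00541), which did not pass without the 11 abundant genes (0.103).

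Feedback inhibitors of these pathways were counted in a list of 17, all tested. Between sets 7 were called higher and 1 lower under each label (all genes 9.79% and 6.96% for wildtype, 11.2% and 7.89% for knockout), with 6 higher under both and list medians of 0.16 and 0.26 (log2). Spred2, an inhibitor of ERK signalling, differed by 1.33 and 1.51, and the phosphatase genes Dusp10 and Dusp4 by 0.91 and 0.95, and 0.81 and 0.84. Dusp7 was the gene called lower (-1.25 and -0.73). By label 1 was called higher and 3 lower over all libraries (all genes 10.2% and 9.07%). Among those called lower were Dusp6, the ERK phosphatase, and Spry2, with log2 differences of -0.46 and -0.42. Without the 11 abundant genes 0 were called higher and 4 lower, where 631 and 2116 of all 12542 genes were.

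Of 11 dimer partners and turnover factors of AP-1, 9 were tested, with medians of -0.01 and 0.07 (log2) between sets, 1 called higher and 0 lower for wildtype in limma (1 lower at an unadjusted p under 0.05; 0 in edgeR and DESeq2) and 2 higher and 1 lower for knockout. Over all genes 9.79% were called higher and 6.96% lower for wildtype, and 11.2% and 7.89% for knockout. Atf4, the effector of the integrated stress response, was called higher between sets under both labels (0.47 and 0.43) and lower by label in both sets (-0.33 and -0.37). By label 1 of the 9 was called higher and 0 lower over all libraries in limma (all genes 10.2% and 9.07%). At an unadjusted p under 0.05 these counts were 2 and 3. In the first set 1 was called higher and 2 lower (10.8% and 7.97%), and in the second 0 and 1 (8.84% and 7.64%). Without the 11 abundant genes 0 and 3 were called over all libraries, where 631 and 2116 of all 12542 genes were. Of 13 genes known as AP-1 targets, 3 were called higher and 4 lower between sets under each label (all genes 9.79% and 6.96% for wildtype, 11.2% and 7.89% for knockout), with medians of -0.07 and 0.05 (log2). Hmox1, haem oxygenase, was higher by 1.34 and 1.29, and Plau, urokinase, by 0.61 and 0.61. Plaur, the urokinase receptor, was lower (-1.27 and -1.07), as was Ccnd1, cyclin D1 (-0.93 and -0.76). By label 4 of the 13 were called higher over all libraries and 0 lower in limma (all genes 10.2% and 9.07%), and 5 and 0 had an unadjusted p under 0.05. Within the first set 5 were called higher and 2 lower (all genes 10.8% and 7.97%). Within the second set 6 were called higher and 1 lower (8.84% and 7.64%). In both sets 5 were called higher and 0 lower (5.97% and 4.18%). Over all libraries the count called higher was 4 in edgeR and 5 in DESeq2, but 1 with quantile normalization and 2 without the 11 abundant genes. Over all genes 1054 of 12553 were called higher with quantile normalization and 631 of 12542 without the 11 abundant genes. Timp1, a metalloprotease inhibitor, differed by 0.51 over all libraries and kept that call under these settings. Its second-set call (0.36) was lost with quantile normalization and without the 11 abundant genes (limma, adjusted p = 0.0903 and 0.113). Over all libraries, Plau (0.57) and Itgb1 (0.22) lost their calls under both scalings, Itgb1 with its sign turned under quantile normalization (-0.16). Lmna (0.49) lost its call over all libraries under quantile normalization. HIF-1 is also known to act on Hmox1, and the HIF target list was higher in the same libraries; its part was not tested.

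Genes most like the members over the 12 libraries were sought by Pearson's r with the mean standardised log2 profile of the 8 tested members, among 9203 other genes whose mean was at least 50. The 5 highest were Higd1a (0.984), 1700001L05Rik (0.983), Fmo2 (0.983), Lif (0.982) and Pgm1 (0.982). The members themselves ranged from Junb (0.963), Fos (0.956) and Fosl1 (0.908) through Jun (0.862), Egr2 (0.859) and Gem (0.525) to Egr1 (0.04) and Ier2 (-0.27). Each member is part of the profile, which raises its r, whereas the 5 genes above are not part of it. The profile is thus led by the genes that differ between sets. The libraries share the 4 blocks, so these values are a description with no p.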

How the data were processed

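Stranded total RNA libraries of 12 myotube samples were compared, and 1 table of 20201 genes was used. It holds a deposited signal, reads normalized by the authors. The submitters' processing notes name Trimmomatic 0.33, STAR 2.5.2, RSEM 1.3.3, DESeq2 and the build mm10. No source used here gives the annotation or the strand setting of the counting. Since RSEM estimates how reads shared between genes divide, near-identical copies are uncertain.

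The values were whole reads divided by a factor per library (100% of values whole within 1e-06 reads). The floor of 3 reads, which covers counting error only, was 2.12 to 5.85 normalized counts, and 98.8% of identifiers were named from GENCODE M21 (GRCm38). Library pairs of a block gave a chi-square per degree of freedom of at least 5.34, so none was counted as a duplicate. The main test was limma 3.58.1 (two-sided, trended prior) on log2(value + 1) for 12553 genes with a mean of 10 or more, with Benjamini-Hochberg adjustment at 0.05; 7648 genes lay below. The label contrast used 6 against 6 libraries, and contrasts within sets and labels came from a fit with 4 means. Intervals are 95%. On recovered reads edgeR 4.0.16 (quasi-likelihood) called 2411 genes by label and DESeq2 1.42.0 called 2787, where limma called 2416. Alternatives were pseudocounts of 0.5 and 10, other filters and scalings, library weights, a robust prior, these tools and each library left out. The steps were tested on data simulated at a fixed dispersion of 0.02. Of 1.5-fold changes, 71% were recovered by label, 30% by label in the first set and 18% between sets for wildtype. Of 2-fold changes, 100%, 81% and 83% were recovered. False calls made up 2.84%, 4.31% and 5.61% of calls. Changes of 1.5-fold within sets or labels can thus be missed. R 4.3.3 and Python 3.11.15 were used.

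The members and lists were chosen with earlier results of these data known. Named were all 10 members and, per list and comparison, up to 3 called genes in each direction with the largest change and a mean of 20 or more; for likeness, 5 genes with a mean of 50 or more; and Arntl, Egln3 and Slc2a1. Others named in the lists were chosen after their values were seen.

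A few list genes are not reported here by name.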

Additional observations from a re-analysis of the deposited data

Results flagged for a closer look

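In each label group of 6 libraries, the gap of the highest or lowest library to its nearest neighbour was set against the range of the group for the 10 members, 20 groups in all. Chance flags about 1 in 20 groups where the 6 values come from 1 population, and 2 stood apart. Each group pools both sets, so this rate need not hold. Where a gene differs between sets, a library apart from its own block can be missed. Junb in Myotube2, at 179.6 against 287 and 322 in Myotube1 and Myotube3, was not flagged. Fosb in Myotube10, labelled knockout, lay at 27.3 normalized counts, from 14 reads, against 3.73 to 10.5 in the other 5 knockout-labelled libraries. Egr1 in Myotube2, labelled wildtype, lay at 108 against 65.0 to 80.7 in the other 5 wildtype-labelled libraries. Myotube2 had the fewest reads.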

How the results depend on the processing

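Of 1154 member values recomputed under the alternatives, 1062 kept direction and side of the threshold, 38 uncalled values changed sign, 39 values lost a call (36 by label in the first set), 15 gained one and 0 called values reversed. The count of members called by label over all libraries was 2, and 4 with the set as a covariate, which added Fosl1 and Egr2 (limma, adjusted p = 0.00102 and 0.0393). In the first set the count was 5, and 2 with no filter, 2 without the 11 abundant genes, 3 in DESeq2, and 2 to 4 with a library left out. In the second set it was 3, and 2 to 5 with a library left out, where 5 was without Myotube2. Myotube2 is in the first set. Leaving out a library outside a comparison keeps its log2 difference and changes p through the spread that the 4 blocks share. The test of the label effect between sets gave 0, and 1 in DESeq2. Leaving out Myotube2 and Myotube10 together, chosen after seeing the data, gave 3 in the first set. Over all genes the label count was 2416, and 3785 with the set as a covariate; the second-set count was 2069, and 3242 with library weights; the test between sets gave 1, and 31 in DESeq2 and 3 with library weights. No paired analysis was possible because the labels carry no replicate numbers. Egr2 was not tested at a minimum mean of 50. Calls of Gem by label, of Egr1 over all libraries, and of Fos, Fosl1, Jun, Junb and Gem between sets were kept under every alternative run. Depth limits Fosb and Egr3. Myotube2 had the fewest reads in all, and Myotube10 the fewest outside the abundant genes (2203478 against 2381830) and the highest floor (5.85 against 4.65 normalized counts).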
